A study of Mus musculus with 14 samples.

Results

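Lymphocyte genes in the mammary fat pad were examined through the DNA methylation of 7 members: Lat, Zap70, Cd79b, Cd37, Rac2, Coro1a and Ikzf1. They were chosen by their levels in DIO-HFD replicate 1 set against those of the other 3 DIO-HFD mice, without a threshold, so that contrast is given here only as a description. Every site of the table assigned to 1 of these symbols was taken, which gave 36 of 75761 sites and 7 of 12627 gene symbols. Methylation was measured by reduced representation bisulfite sequencing (RRBS), which reads cytosines near MspI cut sites in bisulfite-treated DNA, and the level is the methylated share of the reads at a cytosine. The tissue was the contralateral (9th) mammary fat pad of 14 female wild-type C57BL/6NCrl mice, bought at 8 weeks of age, that had all been injected with E0771 mouse mammary cancer cells in the 4th fat pad.

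The 3 CON-LFD mice stayed on a low-fat diet (10% of calories as fat) and were the lean controls. The 4 DIO-HFD mice were made obese on a high-fat diet (60% of calories as fat) and stayed on it. The 3 DIO-LFD mice were obese after 15 weeks of the high-fat diet and then lost weight on the low-fat diet. The 4 DIO-VSG mice were obese after the same 15 weeks, underwent vertical sleeve gastrectomy, in which most of the lateral stomach is removed, and then received the low-fat diet. The mice of the other groups had a sham operation, so DIO-VSG and DIO-LFD mice shared the final diet and differed in the surgery. Tumor cells were injected 22 weeks after randomization and tissue was taken 4 weeks later. Each sample was a piece of whole tissue, and with bulk DNA a different share of lymphocytes and a different methylation within each cell cannot be told apart. RNA was not analysed here, so the presence of lymphocytes was not checked by expression.

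Lat and Zap70 act early in T cell receptor signaling: Zap70 is the kinase recruited to the activated receptor, and Lat is the membrane adaptor that it phosphorylates and on which further signaling proteins assemble. Cd79b is a signaling subunit of the B cell receptor, Cd37 is a tetraspanin of B cells and other leukocytes, Rac2 is a small GTPase of blood cells, Coro1a is an actin-binding protein of leukocytes, and Ikzf1 encodes Ikaros, a transcription factor of lymphoid development. Methylation at the promoters and first exons of such genes is usually lower in the blood cells that express them than in other cells, and a mouse mammary fat pad holds adipocytes, epithelium, vessels and immune cells side by side. The inguinal fat pad also normally contains a lymph node, and whether it was left in these samples is not given in the sources used here.

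The measured cytosines did not all lie in the gene that the table assigned to them. All 36 were at CpG sites of mm10, and 12 lay in CCGG, the MspI recognition sequence, which 32.7% of the sites in the whole table did. By GENCODE M21, 13 of the 36 sites lay inside their own gene, 15 inside another gene and 8 in no gene. Of the 11 sites that the table placed in a gene body, 3 were inside their own gene, namely 2 in a Zap70 intron and 1 in a Rac2 intron. The 6 body sites of Lat lay 1188 to 1268 bp upstream of Lat in a coding exon of Spns1, the body sites of Cd79b at 106329452 and 106329559 lay in an intron of Scn4a, and 5 of the 9 Cd37 sites lay in the 5′ untranslated region of Slc6a16. The sequences around the sites on which the results turn are shown from mm10, 5′ to 3′ on the strand of the lymphocyte gene, with the measured CpG sites in capitals.
Lat first exon, untranslated part, chr7:126369324-126369353, minus strand: gcCGggCGgatcccaggctggagccCGctt
Lat first exon, coding part, chr7:126369221-126369250, minus strand: atggaagcagaCGccttgagcccggtgggg
Spns1 coding exon, chr7:126370755-126370784, minus strand: CGccatgttcattgaagatgacCGcCGgcg
between Cd37 and Slc6a16, chr7:45240769-45240838, minus strand: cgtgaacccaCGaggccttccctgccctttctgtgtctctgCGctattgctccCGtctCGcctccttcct
Slc6a16 first exon, untranslated part, chr7:45241097-45241122, minus strand: caggcaggCGcagcCGaggagcgagg
Ikzf1 promoter, chr11:11685634-11685695, plus strand: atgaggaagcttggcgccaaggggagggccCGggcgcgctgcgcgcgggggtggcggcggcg
Zap70 promoter, chr1:36761700-36761789, plus strand: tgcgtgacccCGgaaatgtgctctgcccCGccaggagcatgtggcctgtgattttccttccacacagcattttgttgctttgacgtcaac
Zap70 intron, chr1:36781644-36781757, plus strand: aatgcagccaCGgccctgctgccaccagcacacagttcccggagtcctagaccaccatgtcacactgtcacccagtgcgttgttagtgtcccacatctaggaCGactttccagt
Rac2 intron, chr15:78571443-78571504, minus strand: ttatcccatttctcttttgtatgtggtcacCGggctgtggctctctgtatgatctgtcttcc
Scn4a intron, chr11:106329442-106329570, minus strand: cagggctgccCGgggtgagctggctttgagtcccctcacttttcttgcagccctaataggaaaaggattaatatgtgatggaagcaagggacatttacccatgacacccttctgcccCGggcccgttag
Coro1a promoter, chr7:126704970-126705031, minus strand: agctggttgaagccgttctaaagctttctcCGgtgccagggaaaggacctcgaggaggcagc

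Lat, Spns1 and Cd37 had several measured CpG sites within a few bases of each other, while Ikzf1 and Rac2 had 1 measured site each. The Lat sequence of the coding part opens with the start codon of Lat, and its measured CpG lies 297 bp past the transcript start given in the table. The Ikzf1 window holds 10 CpG sites in 62 bases, of which 1 was measured, and it is the only window of a promoter in a CpG island. In the RefSeq promoter table for mouse, which holds windows of 300 bases for 5 of the 7 genes, the Ikzf1 window at chr11:11685675-11685974 had 52 CpG sites, against a median of 7 over 32851 promoters. The Lat window had 10 and the Cd37 window 8. None of these windows holds a measured site, and another Ikzf1 window, at chr11:11689927-11690226, had 2 CpG sites.

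Lat had promoter sites and sites in a neighboring gene that differed between mice. At its 5 promoter sites, all in the first exon, the mean level was 37.5, 38.4 and 59.0% in the CON-LFD mice, 28.4, 70.7, 73.7 and 66.4% in DIO-HFD replicates 1 to 4, 31.1, 56.1 and 47.7% in the DIO-LFD mice, and 30.9, 33.8, 35.4 and 35.6% in the DIO-VSG mice. DIO-HFD replicates 2 to 4 were the 3 highest of the 14 mice and DIO-HFD replicate 1 was the lowest, so the DIO-HFD group overlapped every other group. CON-LFD replicate 3 came next below the 3 high mice and was the highest CON-LFD mouse at all 5 sites. DIO-LFD replicate 1 was the lowest of its group, and DIO-LFD replicate 2 the highest, at all 5 sites. The 4 DIO-VSG mice had the narrowest range, with an SD of 2.16 percentage points against 21.2 in DIO-HFD mice. The mean over all tested sites also varied least in DIO-VSG mice, with an SD of 0.31 percentage points against 4.38 in DIO-HFD mice.

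Within the Lat first exon the levels changed over a few bases. Over the 14 mice the mean level was 69.8% at 126369350, 53.0% at 126369346, which is 4 bp away, and 25.4% at 126369293. The largest spread was at 126369346, where the CON-LFD mice had 41.3, 40.2 and 70.4%, DIO-HFD replicates 1 to 4 had 27.7, 91.7, 93.0 and 87.0%, the DIO-LFD mice had 27.8, 63.1 and 51.9%, and the DIO-VSG mice had 33.9, 36.8, 40.0 and 37.5%. At the CpG next to it, 126369350, the same DIO-HFD mice had 60.1, 81.7, 84.2 and 77.0%, so the order of the DIO-HFD mice was kept over a smaller range. At 126369238, the CpG just past the start codon, DIO-HFD replicates 1 to 4 had 18.8, 65.6, 70.6 and 64.8%, and the DIO-VSG mice had 21.3, 21.3, 24.3 and 28.1%.

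The 6 sites in the Spns1 coding exon that the table assigned to Lat ran the other way between mice. Their mean level was 88.9, 89.7 and 82.9% in the CON-LFD mice, 92.5, 79.0, 75.6 and 79.4% in DIO-HFD replicates 1 to 4, 87.3, 89.2 and 88.5% in the DIO-LFD mice, and 90.4, 93.4, 89.0 and 90.0% in the DIO-VSG mice. Here DIO-HFD replicates 2 to 4 were the 3 lowest of the 14 mice, CON-LFD replicate 3 was the next lowest, and DIO-HFD replicate 1 was among the 2 highest. CON-LFD replicate 3 was the lowest CON-LFD mouse at all 6 of these sites. Spns1 encodes a lysosomal transporter.

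**Figure D1:**
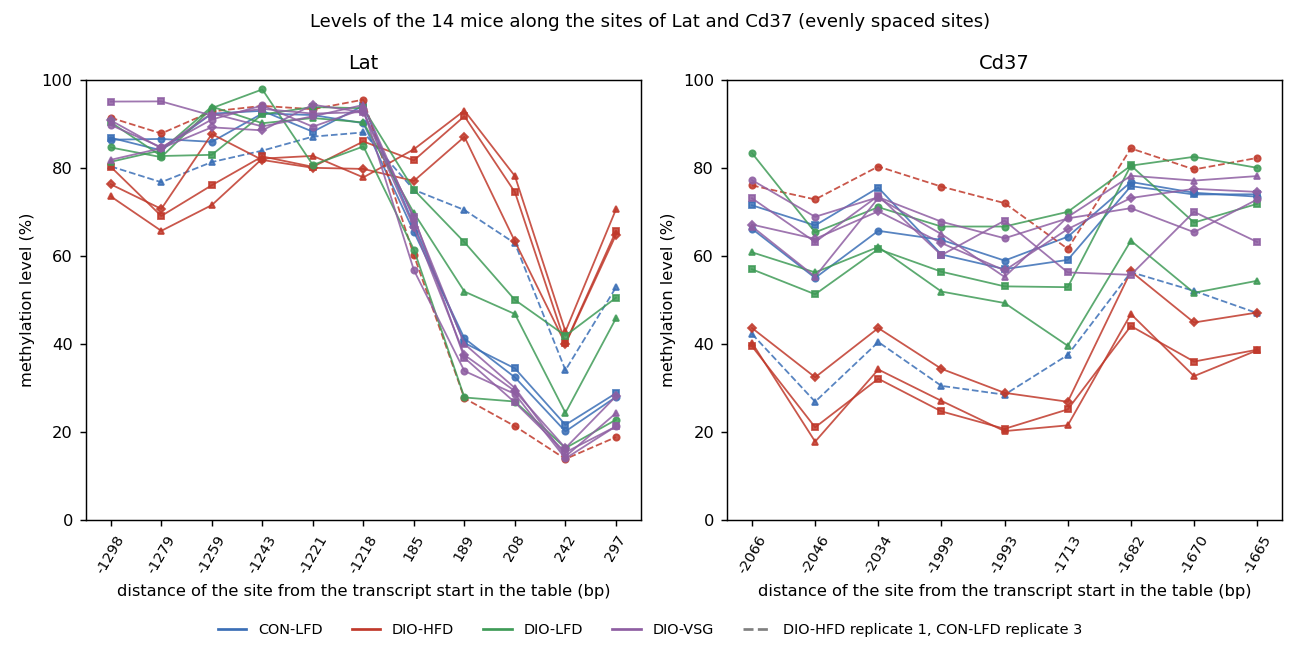
Methylation level (%) of each of the 14 mice (lines, colored by group) at the 11 Lat sites and the 9 Cd37 sites, in order of their distance (bp) from the transcript start in the table, with the sites evenly spaced. At the Lat promoter sites, from 185 to 297 bp past the start, DIO-HFD replicates 2 to 4 lie above the other mice at 126369346, with 87.0 to 93.0%, and DIO-HFD replicate 1 (dashed, 27.7%) lies with the lowest, while at the Cd37 sites the same 3 mice have the lowest means over the 9 sites, with CON-LFD replicate 3 (dashed) among them at single sites.

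Zap70 had 7 sites, of which 4 varied enough to be tested. At its 2 intron sites the mean level was 77.7, 78.0 and 68.1% in the CON-LFD mice, 79.2, 60.5, 56.7 and 59.5% in DIO-HFD replicates 1 to 4, 70.2, 58.7 and 66.5% in the DIO-LFD mice, and 75.8, 78.2, 71.8 and 78.2% in the DIO-VSG mice. DIO-HFD replicate 1 was the highest of the 14 mice, and 3 of the 4 lowest were the other DIO-HFD mice. The 4 DIO-VSG mice were all above the 3 DIO-LFD mice. At 36781746, 1 of these intron sites, the DIO-VSG mice had 70.9, 73.3, 70.7 and 70.6% and the DIO-LFD mice had 68.0, 51.1 and 59.4%.

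At the 3 promoter sites of Zap70 the mice differed less. The mean level was 59.0, 66.7 and 67.6% in the CON-LFD mice, 58.7, 64.5, 65.2 and 70.0% in DIO-HFD replicates 1 to 4, 64.8, 63.6 and 68.9% in the DIO-LFD mice, and 58.0, 64.4, 61.6 and 57.5% in the DIO-VSG mice, so every pair of groups overlapped. The level was higher at no later site along the promoter in any of the 14 mice, with means of 81.6% at 36761710, 69.6% at 36761728 and 39.6% at 36761798, the first base of the gene. The last of these varied too little over the mice to be tested. The 2 sites downstream of Zap70 were also not tested, with mean levels of 7.22% at 36785028 and 33.6% at 36785140.

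Cd79b, the B cell receptor subunit, had 1 promoter site, in its own intron, and 2 sites in an intron of Scn4a, a sodium channel gene of skeletal muscle, at 14690 and 14797 bp upstream of Cd79b. The promoter site had 45.6, 44.4 and 50.2% in the CON-LFD mice, 44.5, 58.7, 55.3 and 50.0% in DIO-HFD replicates 1 to 4, 50.0, 61.1 and 43.4% in the DIO-LFD mice, and 50.0, 47.3, 47.0 and 48.3% in the DIO-VSG mice. All groups overlapped there. At the 2 Scn4a sites the mean level was 74.2, 65.4 and 75.0% in the CON-LFD mice, 70.8, 83.2, 80.6 and 82.3% in DIO-HFD replicates 1 to 4, 68.3, 77.7 and 69.9% in the DIO-LFD mice, and 69.7, 68.2, 72.1 and 67.7% in the DIO-VSG mice. DIO-HFD replicates 2 to 4 were the 3 highest of the 14 mice, as at the Lat promoter, and DIO-HFD replicate 1 lay among the other groups.

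Cd37 had 9 sites between 1664 and 2065 bp upstream of the gene, all in a CpG island. Their mean level was 66.5, 68.2 and 40.2% in the CON-LFD mice, 76.1, 31.3, 31.0 and 39.8% in DIO-HFD replicates 1 to 4, 74.0, 61.3 and 54.4% in the DIO-LFD mice, and 69.9, 64.8, 68.6 and 67.7% in the DIO-VSG mice. DIO-HFD replicates 2 to 4 were the 3 lowest mice, CON-LFD replicate 3 came next, and DIO-HFD replicate 1 was the highest. CON-LFD replicate 3 was the lowest CON-LFD mouse at all 9 sites, and DIO-LFD replicate 1 was the highest DIO-LFD mouse at 8 of the 9.

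The Cd37 sites differed among themselves less than those of Lat. The means over the 14 mice ran from 49.9% at 45241107, in the untranslated region of Slc6a16, to 67.4% at 45240796, which lies in no gene. At 45240827, the Cd37 site with the smallest p relative to DIO-HFD mice, the DIO-VSG mice had 68.5, 56.2, 68.8 and 66.1% and DIO-HFD replicates 1 to 4 had 61.6, 25.1, 21.5 and 26.9%. At 45241160, the site with the largest spread, DIO-HFD replicates 1 to 4 had 72.8, 21.1, 17.8 and 32.4%, and the CON-LFD mice had 55.0, 66.9 and 26.9%. At 45240827 DIO-HFD replicate 1 lay within the range of the DIO-VSG mice, and at 45241160 it was above their range of 55.3 to 68.9%. At both sites CON-LFD replicate 3 was far below the other CON-LFD mice.

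Rac2, the GTPase of blood cells, had 1 site, in its own intron at 78571473. It had 58.5, 60.3 and 75.0% in the CON-LFD mice, 55.1, 78.0, 76.6 and 68.4% in DIO-HFD replicates 1 to 4, 72.1, 74.2 and 68.3% in the DIO-LFD mice, and 62.0, 61.6, 61.5 and 58.1% in the DIO-VSG mice. The 4 DIO-VSG mice were all below the 3 DIO-LFD mice, by 10.7 percentage points between the means. DIO-HFD replicate 1 was the lowest and DIO-HFD replicates 2 and 3 were the 2 highest of the 14 mice.

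Ikzf1 had the widest range of all members at its only site, 11685664, which lies at −261 bp from the transcript start in the table and inside an intron of longer transcripts. It had 28.8, 44.1 and 8.70% in the CON-LFD mice, 75.0, 36.4, 72.4 and 81.0% in DIO-HFD replicates 1 to 4, 16.7, 81.8 and 10.8% in the DIO-LFD mice, and 23.1, 0, 19.4 and 33.3% in the DIO-VSG mice. The DIO-HFD mice were all above the DIO-VSG mice, and here DIO-HFD replicate 1 lay within the range of its group. DIO-LFD replicate 2 was the highest of the 14 mice and the other DIO-LFD mice were among the 4 lowest, so the SD of that group was 39.4 percentage points. The table gives no read counts, so how much of this spread is sampling of reads at 1 CpG was not tested.

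Coro1a varied least. Its promoter sites at 126704226 and 126705000, both in Coro1a introns, had mean levels of 42.4 to 55.6% over the 14 mice, and its 2 other sites, in a Bola2 exon just past the end of Coro1a, had means of 77.0 to 89.0%. At these 2 other sites DIO-HFD replicate 1 had the highest mean, 89.0%, and DIO-HFD replicates 2 and 3 the 2 lowest, 77.0 and 83.2%. Only 126705000 varied enough to be tested. It had 59.3, 51.5 and 51.8% in the CON-LFD mice and 43.8, 48.3, 51.4 and 40.7% in DIO-HFD replicates 1 to 4, so the 2 groups did not overlap. The DIO-LFD and DIO-VSG mice had 40.4 to 52.4% there.

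**Figure D2:**
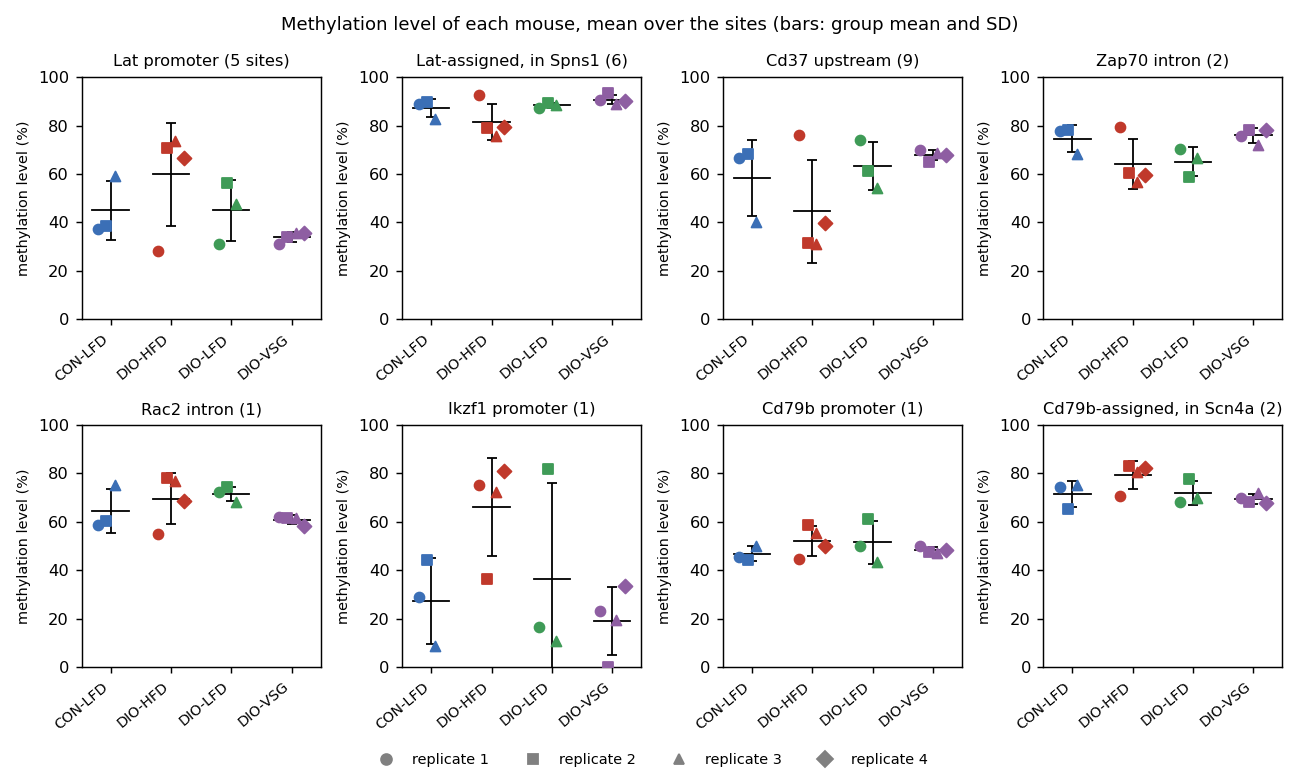
Methylation level (%) of each mouse, averaged over the sites of a gene in 1 context, for the gene and context pairs with most of the spread and the 4 groups. Points are mice, with the shape giving the replicate number, and bars are the group mean and SD, cut off at 0 where they reach below it. DIO-HFD replicate 1 (circle) lies apart from the 3 other DIO-HFD mice at the Lat promoter (28.4 against 66.4 to 73.7%) and upstream of Cd37 (76.1 against 31.0 to 39.8%), and the 4 DIO-VSG mice lie close together in all pairs but Ikzf1.

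The contrast that chose the genes was large at most sites. DIO-HFD replicate 1 lay outside the range of DIO-HFD replicates 2 to 4 at 28 of the 30 tested member sites, above it at 17 and below it at 11. Over all tested sites it lay outside the range at 73.7%, above at 58.8% and below at 14.8%. The 2 member sites where it lay inside were those of Ikzf1 and Coro1a. The difference from the mean of the other 3 mice ran from −62.9 to 49.0 percentage points among the member sites. Other mice, which the choice did not use, took intermediate positions at the same sites: CON-LFD replicate 3 ranked 4 from the lowest at Cd37 and at the Spns1 sites and 11 from the lowest at the Lat promoter, between DIO-HFD replicates 2 to 4 and the other CON-LFD mice.

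**Figure D3:**
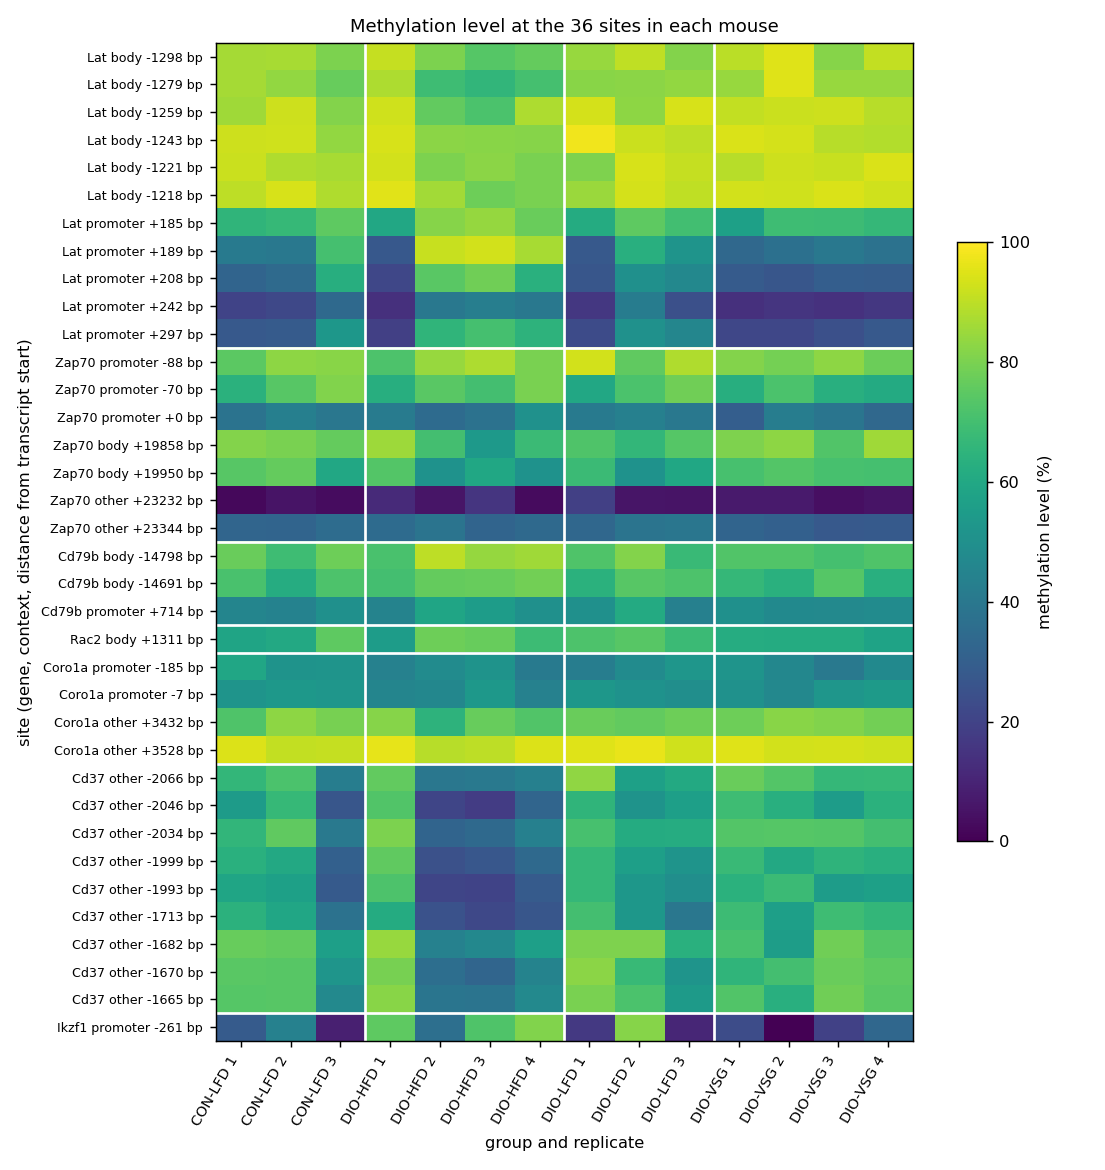
Methylation level (%, color) at the 36 sites (rows, by gene and by distance in bp from the transcript start in the table) in the 14 mice (columns, by group and replicate, with white lines between genes and between groups). The columns of DIO-HFD replicates 2 to 4 differ from that of DIO-HFD replicate 1 over Lat, Cd37 and the Zap70 intron. The rows of Coro1a vary less than those of Cd37 and the Lat promoter, with 40.4 to 59.3% at 126705000 and 64.7 to 83.0% at 126699742.

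The levels of the whole table moved with the same mice. Over all 65610 tested sites the mean level was 57.2 to 57.6% in DIO-HFD replicates 2 to 4, 60.6% in CON-LFD replicate 3, 61.3% in DIO-LFD replicate 2 and 66.2% in DIO-HFD replicate 1, with 62.8 to 65.2% in the other mice. Promoter sites of all genes had 42.3 to 44.4% in DIO-HFD replicates 2 to 4, against 44.3 to 49.5% in the other 11 mice. DIO-HFD replicates 2 to 4, with the lowest means over the table, thus had the 3 lowest levels at Cd37 and the Spns1 sites and the 3 highest at the Lat promoter and the Scn4a sites. DIO-LFD replicate 2, which was also low over the table, ranked 9 from the lowest at the Spns1 sites and 6 at Cd37.

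The comparisons ask whether lean mice and mice that lost weight by diet or by surgery differ from obese mice. Levels were compared on the M scale, log2 of the methylated over the unmethylated share with 0.01 added to each, by limma over all tested sites, with adjustment over all of them. The 3 comparisons with DIO-HFD share the DIO-HFD mice whose spread chose the genes, so they are not independent of the choice or of each other. The comparison of DIO-VSG with DIO-LFD mice did not use them for its group means, though its spread was estimated over all 4 groups.

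Relative to DIO-HFD mice, DIO-VSG mice had lower mean levels at the Lat promoter, Ikzf1, Rac2 and the Scn4a sites of Cd79b, and higher mean levels at Cd37, the Spns1 sites of Lat and the Zap70 intron, and none of these passed the adjusted threshold. Of the 30 member sites 0 passed by limma (0.00305% of all tested sites did). At an unadjusted p under 0.05 there were 14, with 8 higher and 6 lower, against 25.0% of all tested sites, 20.2% higher and 4.85% lower. The lower ones were 4 of the 5 Lat promoter sites, Ikzf1 and 1 Scn4a site, and the higher ones were 7 of the 9 Cd37 sites and 1 Spns1 site. The smallest p was at Cd37 45240827, with a difference in M of 1.90 ± 0.57 (SE, adjusted p = 0.150 by limma). The groups did not overlap at 1 site, Ikzf1, where DIO-VSG was lower, as at 2.03% of all tested sites, and at 0 sites was DIO-VSG higher without overlap (5.55% of all).

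As 1 value per gene, the Lat promoter mean was 33.9% ± 2.16 (SD, n = 4) in DIO-VSG and 59.8% ± 21.2 (SD, n = 4) in DIO-HFD mice, a difference in M of −1.74 ± 0.62 (SE, adjusted p = 0.158 by limma). Cd37 had 67.8% ± 2.15 (SD, n = 4) and 44.6% ± 21.4 (SD, n = 4), a difference in M of 1.39 ± 0.59 (SE, adjusted p = 0.185 by limma). Ikzf1 had 18.9% ± 13.9 (SD, n = 4) and 66.2% ± 20.2 (SD, n = 4), the largest difference in M of the members, −3.87 ± 1.36 (SE, adjusted p = 0.158 by limma). Of the 10 gene averages 0 passed by limma, as over all 14163 (0.0%), and 6 had an unadjusted p under 0.05, against 24.6% of all, with 3 higher (21.1% of all) and 3 lower (3.52% of all). These were the Lat promoter, the Spns1 sites, Cd37, the Zap70 intron, the Scn4a sites and Ikzf1.

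The calls between DIO-VSG and DIO-HFD mice depended on DIO-HFD replicate 1. Without it 22 of the 30 member sites passed the adjusted threshold by limma, 15 higher and 7 lower, against 34.4% of all tested sites, 28.8% higher and 5.62% lower. The Lat promoter average then differed by −2.46 ± 0.40 in M (SE, adjusted p = 0.00213 by limma), Cd37 by 2.05 ± 0.41 (adjusted p = 0.00455 by limma) and the Zap70 intron by 1.14 ± 0.24 (adjusted p = 0.00528 by limma). The Spns1 sites, the Scn4a sites and Rac2 also passed, so 6 of the 10 gene averages did, against 30.3% of all, and Ikzf1 did not. The genes were chosen with this mouse's distance in view, so values without it use the same contrast as the choice and are a description of the other mice.

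Relative to DIO-HFD mice, no member passed in CON-LFD mice. The Lat promoter mean was 45.0% ± 12.2 (SD, n = 3), which was lower by a difference in M of −1.01 ± 0.67 (SE), and Cd37 had 58.3% ± 15.7 (SD, n = 3), which was higher by 0.82 ± 0.64 (SE). Neither passed, with adjusted p = 0.659 and 0.699 by limma. Of the 30 member sites 0 passed by limma (0.0% of all tested sites), and 0 had an unadjusted p under 0.05, against 7.76% of all. Of the 10 gene averages 0 passed (0.0% of all) and 1, the Scn4a sites, had an unadjusted p under 0.05, against 7.04% of all. Coro1a at 126705000 was the only member site whose groups did not overlap, with CON-LFD higher, as at 3.28% of all tested sites, and CON-LFD was lower without overlap at 0 (1.4% of all). Without DIO-HFD replicate 1, 5 sites passed, against 12.0% of all, 1 of them higher (9.67% of all) and 4 lower (2.3% of all), and 4 gene averages passed, the Lat promoter, the Spns1 sites, the Zap70 intron and the Scn4a sites, against 11.0% of all. These counts too use the contrast that chose the genes and are a description only.

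DIO-LFD mice had means between those of DIO-HFD and DIO-VSG mice at the Lat promoter and Cd37. The Lat promoter mean was 45.0% ± 12.7 (SD, n = 3), a difference in M from DIO-HFD mice of −1.03 ± 0.67 (SE, adjusted p = 0.557 by limma). Cd37 had 63.2% ± 9.96 (SD, n = 3), a difference in M of 1.14 ± 0.64 (SE, adjusted p = 0.537 by limma). Of the 30 member sites 0 passed by limma (0.00305% of all tested sites did), and 2 had an unadjusted p under 0.05, Lat 126369346 and the Spns1 site at 126370783, against 10.1% of all. The first was lower (2.16% of all) and the other higher (7.92% of all). Of the 10 gene averages 0 passed (0.0% of all) and 0 had an unadjusted p under 0.05, against 9.29% of all. Without DIO-HFD replicate 1, 12 sites passed, against 14.6% of all, 8 of them higher (12.1% of all) and 4 lower (2.42% of all), and 4 gene averages passed, the Lat promoter, the Spns1 sites, Cd37 and the Scn4a sites, against 13.1% of all. Like the counts for CON-LFD mice, these use the contrast that chose the genes and are a description only.

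Between DIO-VSG and DIO-LFD mice, which ended on the same diet, the members did not pass the threshold either. Of the 30 member sites 0 passed by limma (0.00305% of all tested sites did) and 0 had an unadjusted p under 0.05, against 3.98% of all. The groups did not overlap at 3 sites. DIO-VSG was higher at Zap70 36781746 and at the Spns1 site 126370819, as at 4.93% of all tested sites, and lower at the Rac2 site, as at 2.81%. Of the gene averages 0 passed (0.0% of all) and 0 had an unadjusted p under 0.05, against 4.91% of all. Without DIO-HFD replicate 1 the counts past the threshold were still 0 (0.00457% of all sites and 0.0% of all gene averages). The Zap70 intron average was 76.0% ± 3.02 (SD, n = 4) in DIO-VSG and 65.1% ± 5.89 (SD, n = 3) in DIO-LFD mice, a difference in M of 0.76 ± 0.36 (SE, adjusted p = 0.957 by limma). Rac2 had 60.8% ± 1.82 (SD, n = 4) and 71.5% ± 2.99 (SD, n = 3), a difference in M of −0.68 ± 0.35 (SE, adjusted p = 0.957 by limma). The Lat promoter was 11.0 percentage points lower in DIO-VSG mice and the ranges overlapped.

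**Figure D4:**
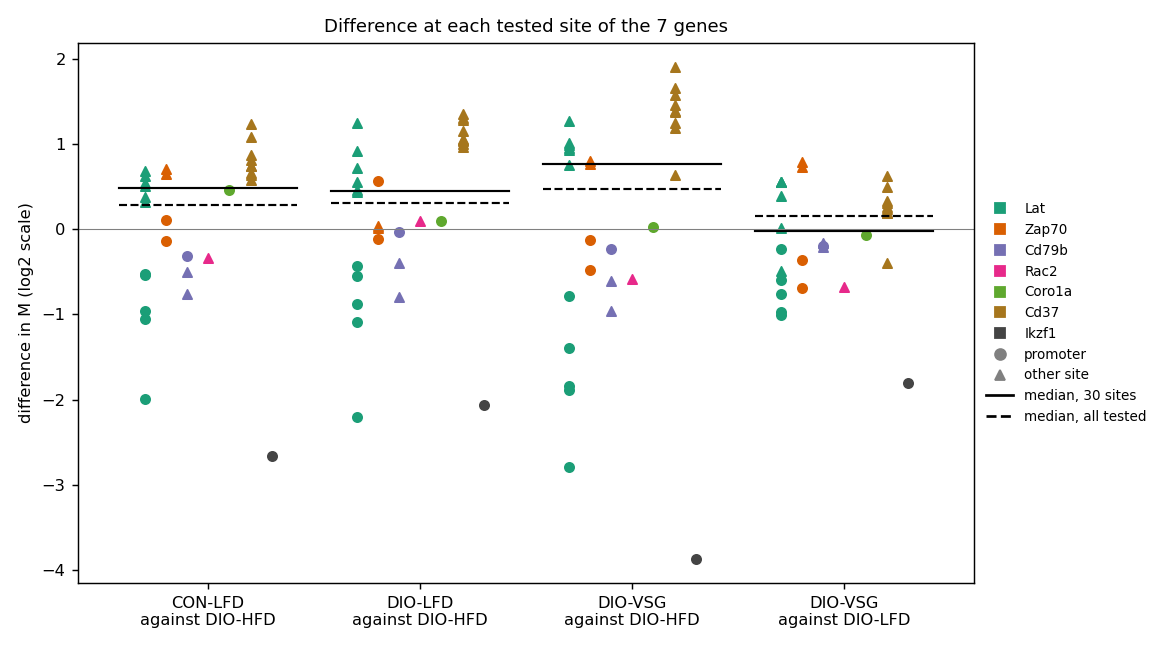
Difference in M (log2 scale) at each of the 30 tested member sites in the 4 comparisons, the first group named minus the second, by gene (color) and context (circles for promoter sites, triangles for others), with the median of the member sites (solid line) and of all tested sites (dashed line). The Lat promoter sites lie below 0 and the Cd37 sites above it in each comparison with DIO-HFD, and the medians of the members are 0.49, 0.45, 0.77 and −0.03, against 0.29, 0.30, 0.48 and 0.16 over all tested sites; with each mouse centred, which is not plotted, the members' are 0.20, 0.16, 0.28 and −0.22.

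The median difference in M over the 30 member sites, relative to DIO-HFD mice, was 0.49 in CON-LFD, 0.45 in DIO-LFD and 0.77 in DIO-VSG mice, beside 0.29, 0.30 and 0.48 over all tested sites. Between DIO-VSG and DIO-LFD mice it was −0.03 beside 0.16. After each mouse was centred on its own median, the medians relative to DIO-HFD mice were 0.20, 0.16 and 0.28, beside −0.0008, 0.013 and −0.0067 over all tested sites. Without DIO-HFD replicate 1 the median was 0.85 in CON-LFD and 1.19 in DIO-VSG mice, beside 0.51 and 0.71. With no filter on the spread of a site it was 0.33 in DIO-VSG mice, beside 0.40. Since 15 of the 30 sites belong to Cd37 and to the Spns1 exon, these medians mostly describe those 2 stretches of DNA. The member sites were higher in DIO-VSG than in DIO-HFD mice at 18 of 30, against 71.3% of all tested sites.

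Coverage of other lymphocyte genes differed by list. Of 54 further genes of lymphocyte signaling 16 had a site, and of 26 lymphocyte transcription factors 21 had. None of their 86 and 233 tested sites passed the threshold by limma in any comparison, and relative to DIO-HFD mice DIO-VSG mice had 18 signaling sites higher (20.9%) and 22 lower (25.6%), and 61 transcription factor sites higher (26.2%) and 19 lower (8.15%), at an unadjusted p under 0.05, against 20.2% higher and 4.85% lower over all tested sites. Single genes gave many of these sites. Runx3 body sites alone were 64 of the 233, with 8 more in its promoter, and Bcl11b body sites were 28. Of the 86 signaling sites, Nfatc2 gave 9 promoter, 9 body and 10 other sites. Sites of 1 gene are not independent, so these shares do not describe the genes equally. The mean over the signaling promoters was 38.6 to 40.8% in DIO-HFD replicates 2 to 4, 32.7% in DIO-HFD replicate 1 and 31.6 to 36.0% in the mice of the other groups. Over the transcription factor promoters it was 44.9 to 47.2% in DIO-HFD replicates 2 to 4, 50.9% in DIO-HFD replicate 1 and 46.4 to 51.8% in the mice of the other groups. Ptpn6, a phosphatase that restrains receptor signaling, had promoter levels of 34.3, 70.8, 69.0 and 66.0% in DIO-HFD replicates 1 to 4, and Vav1, an exchange factor for Rac proteins, had 21.3, 37.5, 35.3 and 36.1%. Lsp1, a leukocyte actin-binding protein, ran the other way with 60.5, 42.6, 39.6 and 40.1%, and so did Runx3, a transcription factor of T cells, with 72.3, 37.2, 38.4 and 44.3%. These promoters were chosen after their values were seen, and DIO-HFD replicate 1 lay far from replicates 2 to 4 in each. Further listed promoters were mixed. At some it lay within or close to their range, as at Eomes (35.5% against 34.8 to 36.8%), Tcf3 (44.4% against 44.5 to 49.7%) and Plcg1 (46.9% against 48.5 to 49.4%). At others it lay well outside, as at Runx1 (51.9% against 33.2 to 36.2%), Tcf7 (47.8% against 56.9 to 60.8%) and Nfatc2 (25.2% against 32.1 to 36.9%).

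Sites of other cell types in the fat pad were counted in the same way. Of 20 adipocyte genes 10 had a site, of 15 genes of mammary epithelium 10, of 15 endothelial genes 12 and of 15 macrophage genes 2. None of their 61, 29, 35 and 9 tested sites passed by limma in any comparison. At an unadjusted p under 0.05, DIO-VSG mice relative to DIO-HFD mice had 17 adipocyte sites higher (27.9%) and 1 lower (1.64%), and 3 epithelial sites higher (10.3%) and 2 lower (6.9%). They had 11 endothelial sites higher (31.4%) and 4 lower (11.4%), and 2 macrophage sites higher (22.2%) and 0 lower, all beside the same 20.2% higher and 4.85% lower over all tested sites. The mean over adipocyte promoters was 45.4 to 48.2% in DIO-HFD replicates 2 to 4, 51.4% in DIO-HFD replicate 1 and 48.3 to 53.1% in the mice of the other groups. Over epithelial promoters it was 42.2 to 45.2% in DIO-HFD and 40.5 to 46.4% in the other mice, so the DIO-HFD mice did not stand apart there. Endothelial promoters had 38.0 to 41.3% in DIO-HFD replicates 2 to 4, 48.1% in DIO-HFD replicate 1 and 42.5 to 47.5% in the other groups. At endothelial body sites the DIO-HFD mice had 45.7 to 52.3% and the other mice 45.6 to 50.2%. The part of any cell type in the differences at the 7 genes was not tested.

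The genes whose mean levels followed the members most closely over the 14 mice were found by the root mean square difference of their centred levels. For the Lat promoter these were the promoters of Mir142b at 3.25, Ptpn6 at 3.8 and Mir142hg at 4.03 percentage points, where the Lat promoter itself varied by 15.4. The first and the third come from the same locus. For Cd37 they were Pim3 at 3.99, H2-DMa at 4.42 and Lrrc32 at 4.60 percentage points, of 15.3 for Cd37 itself. For Ikzf1 the closest, Ankrd28, still differed by 13.1 percentage points of 27.4. The closest to the Zap70 intron were Slc9a5, Arhgef25 and Ubald2, and to Rac2 Emilin1, Slc16a6 and Lhpp. For the Spns1 sites they were Cacna1g, Spsb1 and Gipc3, and for the Scn4a sites Klhl35, Tcirg1 and Adamtsl5. The Cd79b promoter was closest to 4833404L02Rik, Myl7 and Adgrg1. The levels of all genes share the libraries of the 14 mice, so these values describe the mice measured and carry no test.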

How the data were processed

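RRBS libraries of 14 mice were used, with groups from the labels. The authors used Bismark for alignment to mm10, called methylation with methylKit, named the removal of sites of low variability or extreme coverage, and left out 2 mice of poor sequencing quality, 1 CON-LFD and 1 DIO-LFD. The authors deposited each level as a fraction of the reads that were methylated, and it is printed here as a percent. Read counts were not analysed here, the depth is therefore unknown, and no interval or floor was computed. Replicates are separate mice. MspI fragments of 40 to 170 bp were selected per the labels.

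The 7 genes and the other gene lists were chosen with earlier results of these data known. Sites were assigned to genes, and called promoter, body (exon or intron, not promoter) or other, by the table, and located again in GENCODE M21. For the 65610 sites whose standard deviation over the 14 mice reached 0.05, M was computed as log2 of the level plus 0.01 over 1 minus the level plus 0.01. A single limma model held the 4 groups (limma 3.58.1, R 4.3.3), with Benjamini-Hochberg adjustment over all tested sites or all 14163 gene averages (mean M of the tested sites, promoter sites and others apart), two-sided, threshold 0.05. The fit was tested on simulated data. Every site of the 7 genes was counted. Levels per mouse are given for each gene and context, for the site with the largest standard deviation in each, and for the site with the smallest p in each comparison. Lat 126369238 and 126369350, and all single promoters named from the lists of further lymphocyte genes, were chosen after their values were seen. Sequences are from GRCm38.p6, and promoter windows from the RefSeq promoter table of the same build. Alternatives were another offset, levels in place of M, a moderated fit with trend, only the 2 groups compared, centred mice, other filters, the replicate block and each mouse left out.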

Additional observations from a re-analysis of the deposited data

Results flagged for a closer look

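In the groups of 4 mice, DIO-HFD and DIO-VSG, 46 sets of levels of the 7 genes were examined for a mouse far from the other 3, by the gap to its nearest neighbor as a share of the whole range, against the 95% limit of Dixon's test for 4 values. Such a gap was found in 8. In 5 of them the mouse was DIO-HFD replicate 1, whose distance was known when the genes were chosen, so these are a description. Chance alone flags about 1 in 20 sets, but the sets overlap, since a gene mean contains its sites, and the number found is not read against that share.

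The Lat promoter mean was 28.4% in DIO-HFD replicate 1 and 66.4 to 73.7% in the others, a gap of 0.839 of the range. At Lat 126369346 it had 27.7%, with 87.0 to 93.0% in the others (gap 0.909). At the Spns1 site 126370783, assigned to Lat, it had 94.1%, with 81.8 to 82.6% in the others (gap 0.935). The Zap70 intron mean was 79.2% in this mouse and 56.7 to 60.5% in the others (gap 0.831), and Cd37 45240827 had 61.6%, with 21.5 to 26.9% in the others (gap 0.866).

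In DIO-VSG mice the flagged values lay in narrow ranges. Rac2 had 58.1% in replicate 4 and 61.5 to 62.0% in the others (gap 0.888). Replicate 2 had 73.3% at Zap70 36781746, with 70.6 to 70.9% in the others (gap 0.868), and 95.1% at the Spns1 site 126370819, with 84.4 to 84.7% in the others (gap 0.979). The causes were not tested.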

How the results depend on the processing

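With 3 or 4 mice a group and unknown depth, a small difference at 1 site is not detectable here, and a mouse far from its group sets the spread. The number of member sites past the threshold by limma against DIO-HFD mice ranged, over the mice left out in turn, from 0 to 5 (CON-LFD), 0 to 12 (DIO-LFD) and 0 to 22 (DIO-VSG), and that of gene averages from 0 to 4, 0 to 4 and 0 to 6, the higher end in each being the fit without DIO-HFD replicate 1. That fit uses the contrast that chose the genes. The counts were 0 in every other fit, including those restricted to sites inside their own gene or outside CCGG, which were chosen after seeing the data, and in all fits of DIO-VSG against DIO-LFD. For levels in place of M no median difference was computed, the scale being another. The median difference in M over the member sites moved by over 1.5 times in several fits. For CON-LFD against DIO-HFD (0.49) it was 0.20 with mice centred, 0.32 with no filter on the spread, 0.25 without CON-LFD replicate 2 and 0.85 without DIO-HFD replicate 1. For DIO-LFD (0.45) it was 0.16 centred, 0.21 with no filter, 1.02 with a standard deviation of at least 0.1, and 0.24, 0.27 and 0.18 without DIO-HFD replicate 3, DIO-HFD replicate 4 and DIO-LFD replicate 2. For DIO-VSG (0.77) it was 0.28 centred, 0.33 with no filter, 1.22 with a standard deviation of at least 0.1 and 1.19 without DIO-HFD replicate 1. For DIO-VSG against DIO-LFD it lay near 0, from −0.22 centred to 0.19 with a standard deviation of at least 0.1.

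Same-numbered mice had correlations of −0.08 to 0.20, and 4 of 19 were over 0.1. Mice with different numbers had correlations of −0.29 to 0.19, and 2 of 54 were over 0.1. Values over 0.1 were thus a larger share among same-numbered mice, while the 2 ranges overlapped. Whether the replicate numbers pair the mice was not tested. With the replicate block, 0 member sites and 0 gene averages passed in each comparison, as without it, and the Zap70 site at 36781746 turned to −0.049 in DIO-LFD against DIO-HFD.

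Results that changed sign were all short of the threshold. With each mouse centred, differences in M against DIO-HFD became −0.20 for Rac2, −0.20 for the Coro1a promoter, −0.27 for Zap70 outside the promoter, −0.060 for the Zap70 promoter and −0.25 for Zap70 36781746 in DIO-LFD, −0.46 for the Coro1a promoter in DIO-VSG and −0.18 for Zap70 36761728 in CON-LFD. With levels in place of M, the Zap70 promoter in CON-LFD became 0.0011 as a fraction. Over the mice left out, differences in M for DIO-VSG against DIO-LFD ranged from −0.034 to 0.60 for Cd37, −0.32 to 0.024 for Cd79b outside the promoter, −0.42 to 0.083 for the Cd79b promoter, −0.38 to 0.13 for 106329559, −0.22 to 0.062 for the Coro1a promoter and −0.86 to 0.079 for 126370783. For DIO-LFD against DIO-HFD they ranged from −0.31 to 0.20 for the Cd79b promoter, −0.037 to 0.24 for the Coro1a promoter, −0.21 to 0.29 for Rac2, −0.14 to 0.38 for Zap70 outside the promoter, −0.40 to 0.22 for 36761728 and −0.22 to 0.34 for 36781746. For CON-LFD they ranged from −0.25 to 0.25 for the Zap70 promoter and −0.19 to 0.42 for 36761728, and for DIO-VSG from −0.078 to 0.14 for the Coro1a promoter. The causes were not tested.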
